A study of Mus musculus with 11 samples.

Results

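Copper transport and metallothionein genes were followed in mouse airway tissue through the 10 genes Slc31a1, Slc31a2, Atox1, Ccs, Sco1, Atp7a, Atp7b, Commd1, Mt1 and Mt2, chosen by symbol among the 21899 genes of one FPKM table (fragments per kilobase of exon, scaled to the depth of each library) and followed across its 11 libraries. All 10 were found, and 8 of them reached a mean of 0.5 FPKM and entered the comparisons, while Mt2 and Commd1 did not. The study asked what GGsTop, a small-molecule inhibitor of γ-glutamyl transferase, does in a mouse model of asthma exacerbation. Gene expression was read by RNA-seq of poly(A) RNA from young adult male BALB/c mice that the labels call wild type (WT). The PBS group (3 libraries) came from nonsensitised mice given PBS alone. The OVA/LPS/Vehicle group (4 libraries) came from mice sensitised by intraperitoneal ovalbumin (OVA) with alum, challenged with OVA into the nose, and then given lipopolysaccharide (LPS) and vehicle. The OVA/LPS/GGsTop group (4 libraries) had the same sensitisation, challenge and LPS, with GGsTop instilled into the airway after LPS. No group received GGsTop without OVA and LPS. The labels give the tissue as trachea, whereas the study's methods describe bluntly dissected airway freed of trachea. The OVA/LPS/Vehicle libraries carry the numbers 12, 34, 56 and 78 where the others carry single digits, and whether each pools several mice is not stated in the sources used here.

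Copper is needed by a small set of enzymes and is toxic when free, so cells move it from hand to hand. SLC31 transporters bring it in, small chaperones carry it to its users, the P-type ATPases ATP7A and ATP7B load it into the secretory pathway or pump it out, and metallothioneins bind the surplus together with zinc. Metallothionein genes are classic targets of the metal-sensing factor MTF1 and of glucocorticoids, and they rise in many inflamed tissues. ATP7A and ATP7B are mutated in Menkes disease and Wilson disease, respectively. The data here are RNA levels only: neither the metal nor any protein was measured.

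The libraries held between 14513136 fragments (OVA/LPS/GGsTop 2) and 18632382 fragments (PBS 3), recovered from FPKM and exon length. One library stood apart: the slope of a library's log2 level on the GC content of transcripts, relative to the mean of all libraries, was 0.53 per 10 GC points in PBS 3, against 0.05 and 0.06 in the other PBS libraries, -0.26 to -0.19 in OVA/LPS/Vehicle and 0.05 to 0.11 in OVA/LPS/GGsTop. Groups therefore differed in this slope, and values with GC content corrected in each library are given below where they end a call of a gene described. Airway epithelium was present, with Scgb1a1, the club cell secretoglobin, at 26145 to 47905 FPKM and Epcam and Foxj1 detected in every library. The 5 cardiac muscle markers summed to 92.6 to 1600 FPKM in PBS, 759 to 1202 in OVA/LPS/Vehicle and 519 to 2190 in OVA/LPS/GGsTop. The adipocyte markers summed to 15.5 to 125, 126 to 511 and 9.28 to 112 FPKM in the same order. The hepatocyte markers summed to 5.73 to 31.4, 19.5 to 39.8 and 4.23 to 36.2 FPKM in the same order, nearly all of it Cyp2e1 (3.73 to 39.3), with Serpina1a at most 0.92 and Alb, Apoa1 and Ttr at most 0.28. In such bulk tissue, fewer cells of a type and less RNA per cell cannot be told apart.

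The levels of the 10 genes spread widely. Mean FPKM ran from about 72 to 80 for Atox1, the highest, through Mt1, Slc31a2, Slc31a1, Ccs and Atp7b. Atp7a and Sco1 stood at 2.5 to 4.1, and Commd1 and Mt2 below 0.5. This order depends on the merged exon length of each gene, 541 bases for Atox1 and 1246 for Mt1. In OVA/LPS/Vehicle, Atox1 held 530 to 672 fragments a library and Mt1 795 to 893. Atp7b was among the genes singled out in earlier results of these data for its difference between GGsTop and vehicle, so its differences, and those of the other 9, are given as description with no p-value, and calls are given only as counts beside those of all genes or where a setting changes them. Differences between groups are in log2(FPKM + 1), with the standard error (SE) from a limma fit of all 11 libraries and 14004 genes, and a gene is called where the Benjamini-Hochberg adjusted p of that fit lies below 0.05.

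**Figure D1:**
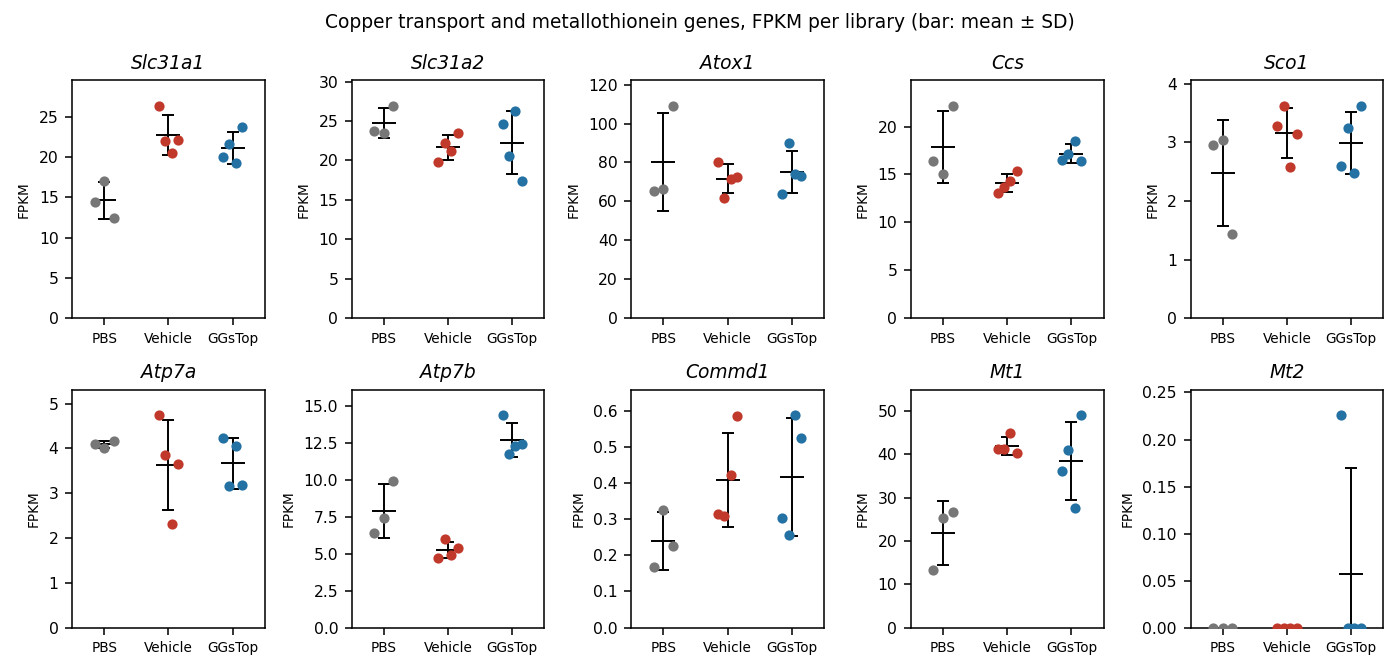
Each panel plots 1 gene; the y axis is FPKM from 0, the points are libraries (3 PBS, 4 OVA/LPS/Vehicle, 4 OVA/LPS/GGsTop) and the bars are mean ± SD. The 4 OVA/LPS/GGsTop libraries of Atp7b lie at 11.7 to 14.4 FPKM, above all others, and the 3 PBS libraries of Mt1 and Slc31a1 lie below all others.

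Among the export ATPases, Atp7b and Atp7a behaved differently in their values. Atp7b (ENSMUSG00000006567) encodes the ATPase that loads copper into ceruloplasmin and excretes it into bile in the liver. It measured 6.38, 7.43 and 9.92 FPKM in PBS, 4.73, 5.97, 4.91 and 5.41 in OVA/LPS/Vehicle, and 14.4, 11.7, 12.3 and 12.4 in OVA/LPS/GGsTop. No library of any group overlapped another group, and the order was OVA/LPS/GGsTop, PBS, OVA/LPS/Vehicle from high to low. Mean FPKM was 7.91 ± 1.82 (SD, n = 3), 5.25 ± 0.558 (n = 4) and 12.7 ± 1.16 (n = 4), from 477 to 1409 fragments a library. The level with GGsTop was 2.42 times that with vehicle, a log2 difference of 1.13 (SE 0.13, 95% interval 0.86 to 1.41). Under the alternative settings the difference lay between 0.98 and 1.27, the lowest being the GC-corrected value. This is the difference for which the gene was singled out, so its size is a description.

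Relative to PBS, Atp7b lay lower on the log2 scale with vehicle (-0.49, SE 0.14) and 0.64 higher with GGsTop (SE 0.14). The call of the lower level with vehicle depended on PBS 3, in which Atp7b was 1.44 times the mean of the other PBS libraries. Without that library the difference was -0.34 and was not called. PBS 1 and 2, at 6.38 and 7.43 FPKM, still lay above every vehicle library (at most 5.97). With GC content corrected the difference was -0.32 and was not called. The higher level against PBS was called in 12 of 23 alternatives. It lost its call without PBS 1, without OVA/LPS/Vehicle 56 or 78 and without OVA/LPS/GGsTop 1, 2 or 4, and also when the shared numbers of PBS and OVA/LPS/GGsTop libraries were used as a block (log2 difference 0.65), while its size stayed between 0.51 and 0.79. The 5 thyroid markers summed to 112, 195, 334 and 23.1 FPKM in OVA/LPS/Vehicle 12, 34, 56 and 78, to 5.94 to 8.96 in PBS and to 9.79 to 18.9 in OVA/LPS/GGsTop, and the part of thyroid tissue in the values of Atp7b was not tested.

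Atp7a (ENSMUSG00000033792), the ATPase that supplies copper to secreted enzymes in most tissues, showed no such separation. It read 4.10, 4.003 and 4.17 FPKM in PBS, 4.74, 3.85, 2.31 and 3.65 in OVA/LPS/Vehicle, and 4.24, 3.16, 4.06 and 3.19 in OVA/LPS/GGsTop. The groups overlapped in all 3 comparisons. The log2 difference of GGsTop from vehicle was 0.03 (95% interval -0.31 to 0.37), and no test of Atp7a against Atp7b was made. With GC content corrected it was 0.18. Vehicle against PBS gave -0.16 (SE 0.17), and -0.44 (SE 0.18) with GC content corrected, called in neither case.

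The genes whose profile over the 11 libraries was most like that of Atp7b were Ngef, Cux2 and Jade2, with Pearson r of 0.983, 0.973 and 0.971 among the 14004 genes, over libraries that share the same group structure and GC slopes. Ngef averaged 4.46 ± 0.431 FPKM in PBS (n = 3), 3.39 ± 0.490 in OVA/LPS/Vehicle (n = 4) and 6.97 ± 0.555 in OVA/LPS/GGsTop (n = 4). Jade2, a scaffold of histone acetyltransferase complexes, averaged 6.90 ± 1.17, 4.84 ± 0.182 and 9.43 ± 1.145 FPKM in the same order. Cux2, a homeobox gene, was low in all groups, at 0.664 ± 0.127, 0.433 ± 0.0611 and 0.873 ± 0.0941 FPKM.

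Of the metallothioneins, Mt1 was abundant and Mt2 was almost unread. Mt1 (ENSMUSG00000031765), a small cysteine-rich protein that binds zinc and copper, measured 13.4, 25.4 and 26.7 FPKM in PBS, 41.2, 41.2, 45.0 and 40.2 in OVA/LPS/Vehicle, and 36.2, 41.0, 27.6 and 49.0 in OVA/LPS/GGsTop. All libraries that had received OVA and LPS lay above all PBS libraries, and those with vehicle were tightly bunched. Mt1 averaged 21.8 ± 7.33 FPKM in PBS (SD, n = 3), 41.9 ± 2.10 in OVA/LPS/Vehicle (n = 4) and 38.5 ± 8.95 in OVA/LPS/GGsTop (n = 4). With vehicle the level was 1.92 times that of PBS, a log2 difference of 0.97 (SE 0.23, 95% interval 0.47 to 1.47). Under the alternative settings the difference lay between 0.67 and 1.25, at 1.11 with GC content corrected and 1.14 without PBS 3. Against PBS, GGsTop gave a log2 difference of 0.82 (SE 0.23), which was not called but did not overlap, and which was called in 3 of 23 alternatives. Between GGsTop and vehicle Mt1 overlapped, with a log2 difference of -0.15 (95% interval -0.61 to 0.32).

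Mt1 was lowest in PBS 1, where the cardiac markers were also lowest, at 92.6 FPKM. PBS 3, with cardiac markers at 131 FPKM, had 26.7 FPKM of Mt1, and PBS 2, with 1600 FPKM, had 25.4. In OVA/LPS/GGsTop the order of Mt1 (27.6, 36.2, 41.0 and 49.0 FPKM in libraries 3, 1, 2 and 4) was also the order of the cardiac sum (519, 812, 1902 and 2190). The smooth muscle sum (468, 612, 628 and 1147 FPKM) and Epcam (34.5, 43.0, 49.7 and 59.1) had that order too. In OVA/LPS/Vehicle 12, 34, 56 and 78 the cardiac sum was 1065, 759, 1202 and 1137 FPKM, with Mt1 at 41.2, 41.2, 45.0 and 40.2. The orders differed there. The part of cardiac muscle, whatever its origin, or of other tissue in the level of Mt1 was not tested. The closest profiles to Mt1 over the 11 libraries were those of Plet1, 4921536K21Rik and Arhgdig, with Pearson r of 0.962, 0.962 and 0.950. Plet1, a cell surface protein of epithelial progenitors, averaged 8.83 ± 2.62 FPKM in PBS (n = 3), 16.04 ± 1.81 in OVA/LPS/Vehicle (n = 4) and 14.1 ± 2.93 in OVA/LPS/GGsTop (n = 4).

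Mt2 (ENSMUSG00000031762), the neighbour of Mt1 on chromosome 8 and usually expressed with it, was listed at 0 in 10 of the 11 libraries. The exception was OVA/LPS/GGsTop 1, with 0.226 FPKM, which corresponds to 2 fragments. A count of 0 allows a level of up to 0.274 to 0.352 FPKM in these libraries (3 fragments, counting error only), far below the level of Mt1. In the GENCODE M21 annotation, 73.5% of the exon bases of Mt2 and 66.8% of its coding bases are also covered by exons of Gm45774, an antisense gene on the opposite strand, whereas none of the exon bases of Mt1 are shared. The reading of Mt2 is therefore uncertain, and its zeros do not show that the gene was silent. How fragments over shared bases were counted is not stated in the sources used here.

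Commd1 (ENSMUSG00000051355), a copper-binding protein that helps traffic ATP7A and ATP7B, was the other gene below 0.5 FPKM. It read 0.17 to 0.33 FPKM in PBS, 0.31 to 0.58 in OVA/LPS/Vehicle and 0.26 to 0.59 in OVA/LPS/GGsTop, from 15 to 58 fragments a library. The groups overlapped in all 3 comparisons. Exons of other genes cover 53.1% of its coding bases, the largest overlap being Zrsr1 on the opposite strand, but only 11.9% of all its exon bases. The other 8 genes share no exon base with another gene in that annotation.

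The same association was visible among 90 related genes of metal handling and of the glucocorticoid response listed further on. Among these 90 alone, 5 of the 14 with a mean below 0.5 FPKM had at least 50% of their coding bases covered by another gene. At or above 0.5 FPKM it was 1 of the 76 (Cox17). Together with the 10 genes, which include Mt2 and Commd1 at 66.8% and 53.1%, these counts were 7 of 16 and 1 of 84. Over all genes with coding bases the corresponding shares were 7.45% of 7788 and 1.89% of 13969. The 193 genes of the table whose exon bases were all shared had a mean below 0.5 FPKM in 193 of 193 cases, against 35.3% of the other genes. Of the related genes, Sco2 and Ccdc22 were listed at 0 in every library, and Cox16, Commd5 and Slc39a7 were below 0.5 FPKM, so no statement about these 5 is made.

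**Figure D2:**
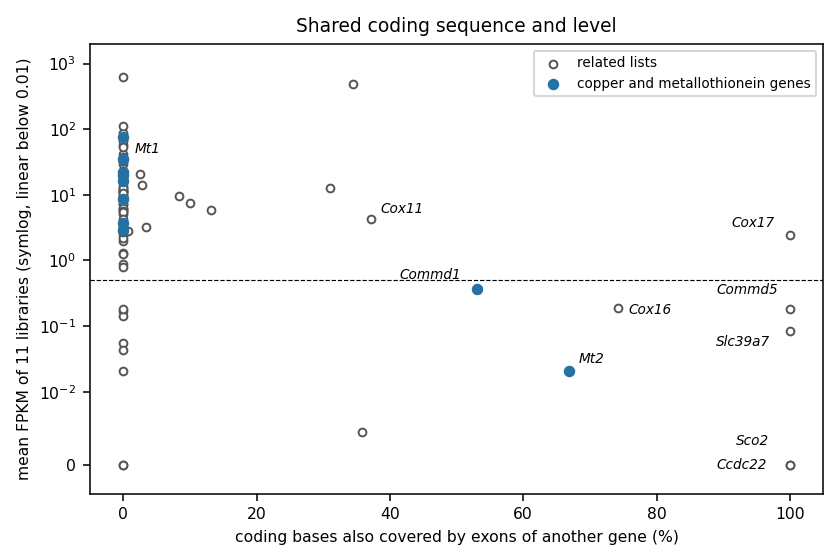
The x axis is the percentage of a gene's coding bases also covered by exons of another gene in GENCODE M21, the y axis its mean FPKM over 11 libraries on a log scale that turns linear below 0.01, and the dashed line the 0.5 FPKM filter. Filled points are the 10 copper and metallothionein genes and open points the 90 related genes; Mt2 and Commd1 sit below the line at 66.8% and 53.1%, and Mt1 with the rest at 0%.

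The promoters of 3 genes are shown because Atp7b and Mt1 carried the separations between groups and Mt2 is the unread partner of Mt1. Each runs from 250 bases before to 50 after the start listed by RefSeq for GRCm38.p6 and reads 5′ to 3′ on the strand of the gene: chr8:22060025-22060324 (minus strand) for Atp7b, chr8:94178839-94179138 (plus) for Mt1 and chr8:94172368-94172667 (plus) for Mt2. Capitals mark the core of the metal response element, TGCACNC or TGCGCNC, searched on both strands.
Atp7b: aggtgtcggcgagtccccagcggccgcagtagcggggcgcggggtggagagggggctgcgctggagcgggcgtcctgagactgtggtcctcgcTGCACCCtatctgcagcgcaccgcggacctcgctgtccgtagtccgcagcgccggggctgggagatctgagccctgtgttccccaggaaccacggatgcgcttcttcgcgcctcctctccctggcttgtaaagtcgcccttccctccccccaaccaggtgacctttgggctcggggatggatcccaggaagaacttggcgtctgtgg
Mt1: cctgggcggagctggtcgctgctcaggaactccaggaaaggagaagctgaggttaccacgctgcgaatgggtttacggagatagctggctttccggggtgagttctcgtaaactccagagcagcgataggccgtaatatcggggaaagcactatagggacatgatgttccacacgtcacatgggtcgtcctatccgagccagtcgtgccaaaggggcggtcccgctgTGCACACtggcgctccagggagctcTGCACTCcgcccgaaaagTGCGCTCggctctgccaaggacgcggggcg
Mt2: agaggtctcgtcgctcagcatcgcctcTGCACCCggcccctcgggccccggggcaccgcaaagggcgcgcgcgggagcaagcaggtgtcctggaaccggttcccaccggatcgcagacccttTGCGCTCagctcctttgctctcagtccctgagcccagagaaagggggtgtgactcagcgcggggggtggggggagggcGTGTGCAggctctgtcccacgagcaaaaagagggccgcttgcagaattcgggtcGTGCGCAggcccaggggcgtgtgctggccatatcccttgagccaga
Mt2 held 4 matches, starting at -223, -128, -50 and +5 from the listed start, Mt1 held 3, at -23, +3 and +21, and Atp7b held 1, at -157. Whether the RNA of these genes began at the listed start in these libraries was not tested. Bases beyond the window were not searched, so elements near another start would be missed. Of all 32817 promoters of the table, 25.7% held at least 1 match, 7.12% at least 2 and 1.97% at least 3. Among the other genes, Atp7a held 2 matches, Slc31a2 1 and each of 2 listed Commd1 promoters 1, while Slc31a1, Atox1 and Sco1 held none and Ccs had no entry. A match describes letters in this window and is not a measured binding site, and the absence of a match says only that these letters are not in this window. The core of the antioxidant response element, TGACNNNGC, which 12.4% of all promoters held, was found in Mt2 at -79, in Slc31a2, in Atox1 and in the second promoter of Commd1, and not in those of Atp7b or Mt1.

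Of the uptake transporters, Slc31a1 separated the groups and Slc31a2 did not. Slc31a1 (ENSMUSG00000066150), the high-affinity copper importer CTR1, read 14.5, 17.0 and 12.4 FPKM in PBS, 26.4, 21.9, 20.5 and 22.2 in OVA/LPS/Vehicle, and 20.02, 21.6, 19.2 and 23.7 in OVA/LPS/GGsTop. Every library after OVA and LPS exceeded every PBS library, and the treated groups overlapped each other. The log2 difference from PBS was 0.61 with vehicle (SE 0.13; 1.55 times) and 0.51 with GGsTop (SE 0.13; 1.44 times), and only the first was called. With GC content corrected the first fell to 0.28 and was no longer called. Between GGsTop and vehicle the log2 difference was -0.10 (95% interval -0.35 to 0.16), and its sign turned with GC correction (0.10).

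Slc31a2 (ENSMUSG00000066152), the related transporter CTR2 of internal membranes, read 23.8, 23.4 and 26.9 FPKM in PBS, 19.8, 22.2, 21.2 and 23.5 in OVA/LPS/Vehicle, and 24.6, 20.5, 26.3 and 17.4 in OVA/LPS/GGsTop. The groups overlapped throughout, with log2 differences of -0.18 (vehicle against PBS), 0.02 (GGsTop against vehicle) and -0.16 (GGsTop against PBS), each with an SE of 0.12 to 0.13. The importers thus differed in their values, but a test of the difference between the genes was not made.

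The chaperones showed no called difference in any comparison. Atox1 (ENSMUSG00000018585), which hands copper to ATP7A and ATP7B, read 65.3, 66.3 and 109 FPKM in PBS, 80.1, 62.0, 71.4 and 72.7 in OVA/LPS/Vehicle, and 63.7, 89.9, 74.0 and 72.8 in OVA/LPS/GGsTop. Apart from PBS 3, at 1.66 times the mean of the other PBS libraries, its libraries lay between 62.0 and 89.9 FPKM. The log2 difference of vehicle from PBS was -0.13 (SE 0.18) with PBS 3 and 0.11 without it, and GGsTop against vehicle was 0.06 (95% interval -0.31 to 0.44) but -0.23 with GC content corrected.

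Ccs (ENSMUSG00000034108), the chaperone that delivers copper to superoxide dismutase 1, read 16.4, 15.0 and 22.2 FPKM in PBS, 13.1, 13.7, 14.3 and 15.3 in OVA/LPS/Vehicle, and 16.5, 17.2, 18.5 and 16.4 in OVA/LPS/GGsTop. The libraries with GGsTop all lay above those with vehicle. The log2 difference was 0.27 (SE 0.12) and was not called, although it was called without PBS 3 and when only these 2 groups were fitted. With GC content corrected it was 0.02. Sod1, the enzyme that Ccs serves, averaged 72.7 ± 9.39 FPKM in PBS (n = 3), 71.5 ± 5.31 in OVA/LPS/Vehicle (n = 4) and 72.8 ± 2.11 in OVA/LPS/GGsTop (n = 4).

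Sco1 (ENSMUSG00000069844), which passes copper to cytochrome c oxidase in mitochondria, read 2.96, 3.04 and 1.44 FPKM in PBS, 3.29, 3.63, 2.59 and 3.14 in OVA/LPS/Vehicle, and 2.61, 3.25, 2.49 and 3.62 in OVA/LPS/GGsTop. PBS 3 was again apart, here at 0.479 times the mean of the other PBS libraries. The log2 difference of vehicle from PBS was 0.29 (SE 0.18) with it and 0.05 without it, and -0.13 with GC content corrected.

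**Figure D3:**
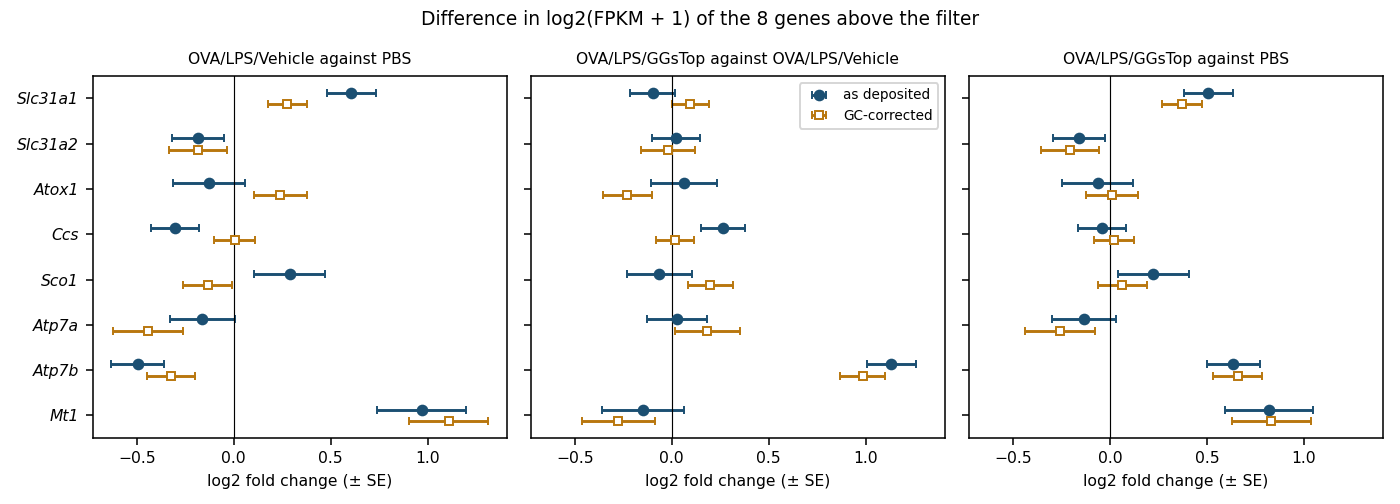
The x axis is the log2 difference in FPKM + 1 with its SE for the 8 genes above the filter, in 3 comparisons. Filled circles use the values as deposited and open squares the GC-corrected ones; Atp7b with GGsTop against vehicle (1.13 and 0.98) and Mt1 with vehicle against PBS (0.97 and 1.11) keep their place, while Slc31a1 and Ccs move toward 0 in the comparison of vehicle with PBS.

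Counted together, GGsTop against vehicle called 1 of the 8 genes (Atp7b, higher), where 8.71% of all 14004 genes were called (6.9% higher, 1.81% lower). Vehicle against PBS called 3 of 8, with Mt1 and Slc31a1 higher and Atp7b lower, where 38% of all genes were called (15.9% higher, 22.1% lower). GGsTop against PBS called 1 of 8 (Atp7b, higher), where 2.88% were called (2.06% higher, 0.821% lower). Groups did not overlap for 2 of 8 genes in GGsTop against vehicle, both higher, beside 29.7% of all genes (17.3% higher, 12.4% lower). In vehicle against PBS they did not overlap for 3 of 8, 2 higher and 1 lower, beside 44.1% (18.7% higher, 25.4% lower), and in GGsTop against PBS for 3 of 8, all higher, beside 14.8% (7.22% higher, 7.54% lower). The median log2 difference of the 8 genes was 0.02, -0.14 and 0.09 in these comparisons, beside 0.03, -0.01 and 0.01 for all genes tested. Since earlier results entered the choice of genes, nothing is read from these shares. The comparisons share libraries, and so do their values.

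The wider pathway was followed in lists that hold 90 genes, 76 of them above the filter, with adjusted p-values from the same limma fit. GGsTop against vehicle called 5 of 76 (6.58%; 4 higher, 1 lower), vehicle against PBS called 26 (34.2%; 14 higher, 12 lower) and GGsTop against PBS called 6 (7.89%; all higher), beside 8.71%, 38% and 2.88% of all genes. All 5 calls of GGsTop against vehicle were lost when GC content was corrected, as were 13 of the 26 of vehicle against PBS, whereas the 6 of GGsTop against PBS kept theirs. With GC content corrected and PBS 3 left out, 2 of the 5, 1 of the 26 and 1 of the 6 were called. All genes were then called in 2.13%, 2.21% and 0.421% of cases, in the same order. Of these 6, Tsc22d3 alone was still called with the replicate numbers as a block, 4 were with the block and GC correction together, Fkbp5 alone was without PBS 3, and no related gene was called in that comparison without PBS 1. The count in GGsTop against vehicle fell to 0 without OVA/LPS/Vehicle 34, without OVA/LPS/Vehicle 56 or without OVA/LPS/GGsTop 1, and rose to 21 without PBS 3.

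Of 15 copper-dependent enzymes, 2 rose and 3 fell in vehicle against PBS, a share called (33.3%) below that of all genes. Cp, the ferroxidase ceruloplasmin, rose from 21.1 ± 6.80 FPKM in PBS (n = 3) to 47.7 ± 12 with vehicle (n = 4), a log2 difference of 1.16 (SE 0.27, limma adjusted p = 0.0095), and stood at 35.6 ± 9.76 with GGsTop (n = 4). Aoc1, which oxidises histamine and other diamines, rose from 1.53 ± 1.51 to 4.65 ± 0.891 FPKM (log2 difference 1.30, SE 0.34, limma adjusted p = 0.014). The matrix cross-linkers Loxl1 and Loxl3 and the extracellular superoxide dismutase Sod3 fell: Loxl1 from 74.8 ± 36.2 to 23.9 ± 3.13 FPKM (limma adjusted p = 0.0037), Loxl3 from 4.73 ± 0.614 to 2.09 ± 0.256 (0.0043) and Sod3 from 127 ± 41.6 to 63.4 ± 4.93 (0.0061). With GC content corrected the call of Cp was lost (adjusted p = 0.050) and the other 4 kept theirs, and without PBS 3 that of Aoc1 was lost. When both changes were made together, only 1 of the 26 calls over all related lists remained.

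Among the copper enzymes Aoc2, a retina-type amine oxidase, rose with GGsTop against both other groups. It averaged 2.13 ± 0.0309 FPKM in PBS (n = 3), 2.12 ± 0.293 in OVA/LPS/Vehicle (n = 4) and 3.79 ± 0.361 in OVA/LPS/GGsTop (n = 4). Against vehicle the log2 difference was 0.62 (SE 0.10, limma adjusted p = 0.015; 0.057 with GC content corrected) and against PBS 0.61 (SE 0.11, limma adjusted p = 0.017; 0.101 with the block).

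The 4 STEAP genes, of a family of membrane proteins that includes reductases of iron and copper, were all called in vehicle against PBS, where 38% of all genes were called. Steap4 rose from 17.7 ± 5.59 to 44.3 ± 9.12 FPKM (log2 difference 1.30, SE 0.28, limma adjusted p = 0.0076), Steap1 from 0.889 ± 0.693 to 3.99 ± 0.663 (1.45, SE 0.31, adjusted p = 0.0070) and Steap2 from 1.58 ± 0.536 to 3.11 ± 0.406 (0.69, SE 0.21, adjusted p = 0.027). Steap3 fell from 9.02 ± 1.52 to 5.61 ± 0.610 FPKM (-0.60, SE 0.12, adjusted p = 0.0062). With GC content corrected Steap2 lost its call and the other 3 kept theirs. When PBS 3 was also left out, only 1 of the 26 calls over all related lists remained. Steap4 stood at 24.97 ± 9.23 FPKM with GGsTop, and no STEAP gene was called in either comparison of GGsTop.

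The mitochondrial copper delivery genes and the COMMD and CCC complex genes, which assemble cytochrome c oxidase and recycle copper transporters, had few calls. Cmc1 rose from 7.38 ± 2.77 FPKM in PBS to 14.4 ± 1.20 with vehicle (log2 difference 0.93, SE 0.18, limma adjusted p = 0.0056), 1 of 8 genes of the mitochondrial list. Coa6, in the same list, fell from 23.8 ± 2.19 with vehicle to 17.4 ± 2.98 with GGsTop (-0.44, SE 0.12, limma adjusted p = 0.045; 0.103 with GC content corrected). In the COMMD and CCC list, 3 of 10 were called in vehicle against PBS, beside 38% of all genes. Commd3 was higher (24.9 against 18.5 FPKM, limma adjusted p = 0.043), and Commd4 (10.99 against 15.6, 0.035) and Ccdc93 (2.28 against 3.08, 0.034) were lower. Each of these 3 lost its call without PBS 3, Commd3 and Commd4 also with GC content corrected (adjusted p = 0.070 and 0.243), and no gene of this list was called in a comparison of GGsTop.

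Of the other metallothioneins and their regulator, Mt3 rose and Mtf1 did not pass. Mt3, a metallothionein best known in brain, averaged 0.413 ± 0.590 FPKM in PBS (n = 3) and 1.80 ± 0.698 with vehicle (n = 4), a log2 difference of 1.03 (SE 0.33, limma adjusted p = 0.030; 0.115 without PBS 3). Mt3 was thinly read, at 0 to 18 fragments a library in PBS and 21 to 47 with vehicle, so this call is uncertain. Mtf1, the zinc-sensing factor that drives metallothionein genes, averaged 3.50 ± 0.146, 3.48 ± 0.192 and 3.97 ± 0.193 FPKM in PBS, with vehicle and with GGsTop, respectively. Mt4 was below the filter.

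Of 11 SLC39 genes, which bring zinc into the cytosol, 4 fell with vehicle against PBS, none rose and 7 were not called, where 22.1% of all genes were called lower. Slc39a3 went from 16.03 ± 5.59 to 7.94 ± 0.663 FPKM (limma adjusted p = 0.0051), Slc39a13 from 12.1 ± 2.05 to 7.23 ± 0.367 (0.0069), Slc39a1 from 39.2 ± 8.44 to 27.5 ± 2.19 (0.021) and Slc39a14 from 4.14 ± 0.582 to 3.03 ± 0.270 (0.039). With GC content corrected only Slc39a3 of these kept its call. Slc39a14 is the fourth of its list by p and is named after its values were seen. Of 6 SLC30 genes, which move zinc out of the cytosol, 1 was called: Slc30a4 rose from 6.33 ± 2.12 to 9.03 ± 0.813 FPKM (limma adjusted p = 0.039; 0.838 with GC content corrected). Slc30a1, a standard target of MTF1, averaged 10.7 ± 2.81, 13.7 ± 0.748 and 13.2 ± 3.73 FPKM in PBS, with vehicle and with GGsTop, and was not called.

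Iron handling genes, which share transporters and reductases with copper, were called in 4 of 10 cases in vehicle against PBS, near the 38% of all genes. Ireb2, an iron sensor, rose from 7.95 ± 3.50 to 13.4 ± 0.404 FPKM (limma adjusted p = 0.024) and Tfrc, the transferrin receptor, from 9.87 ± 2.85 to 15.5 ± 0.593 (0.015), while Fth1, the ferritin heavy chain, fell from 727 ± 113 to 536 ± 28.5 (0.034). Hamp, the iron hormone hepcidin, was called higher (limma adjusted p = 0.049) although its groups overlapped, with 0 to 33.5 FPKM in PBS and 19.8 to 29.7 with vehicle. These 4 lost their calls when GC content was corrected. Slc11a2, an importer of divalent iron, rose with GGsTop, from 12.2 ± 0.403 FPKM in PBS and 12.5 ± 1.001 with vehicle to 17.3 ± 2.30 (limma adjusted p = 0.030 against vehicle and 0.049 against PBS). Against vehicle the adjusted p was 0.075 with GC content corrected, and against PBS it was 0.211 with the block.

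The glucocorticoid-responsive genes, listed because Mt1 and Mt2 belong to the same response, were called in 3 of 10 cases in vehicle against PBS, 4 of 10 in GGsTop against PBS and 2 of 10 in GGsTop against vehicle. The shares over all genes were 38%, 2.88% and 8.71% in the same order. Tsc22d3, the mediator GILZ, averaged 28.2 ± 6.005 FPKM in PBS (n = 3), 72.4 ± 24.1 with vehicle (n = 4) and 90.4 ± 13.8 with GGsTop (n = 4). It rose by 1.29 on the log2 scale with vehicle (SE 0.25, limma adjusted p = 0.0053) and by 1.65 with GGsTop (SE 0.25, limma adjusted p = 0.013; 0.020 with the block). Klf9 rose from 22.7 ± 4.67 to 41.7 ± 8.66 FPKM with vehicle (limma adjusted p = 0.0063) and to 40.3 ± 1.95 with GGsTop (0.033; 0.056 with the block). It is named for GGsTop against PBS after its values were seen. Dusp1, a phosphatase of MAP kinases, fell instead with vehicle, from 148 ± 26.0 to 88.0 ± 16.2 FPKM (limma adjusted p = 0.015; 0.064 with GC content corrected).

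Fkbp5 and Per1 rose with GGsTop against both other groups. Fkbp5, a co-chaperone of the glucocorticoid receptor, averaged 1.48 ± 0.486, 2.32 ± 0.588 and 4.14 ± 0.450 FPKM in PBS, with vehicle and with GGsTop (limma adjusted p = 0.031 against vehicle and 0.014 against PBS). Per1, a clock gene that also varies with time of day, averaged 14.1 ± 5.76, 13.9 ± 4.63 and 38.5 ± 7.07 FPKM (limma adjusted p = 0.020 against vehicle and 0.029 against PBS). With GC content corrected the adjusted p against vehicle was 0.074 for Fkbp5 and 0.081 for Per1, and with the block that against PBS was 0.053 and 0.056. The time of tissue collection is not given in the sources used here, and its part in these values was not tested.

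**Figure D4:**
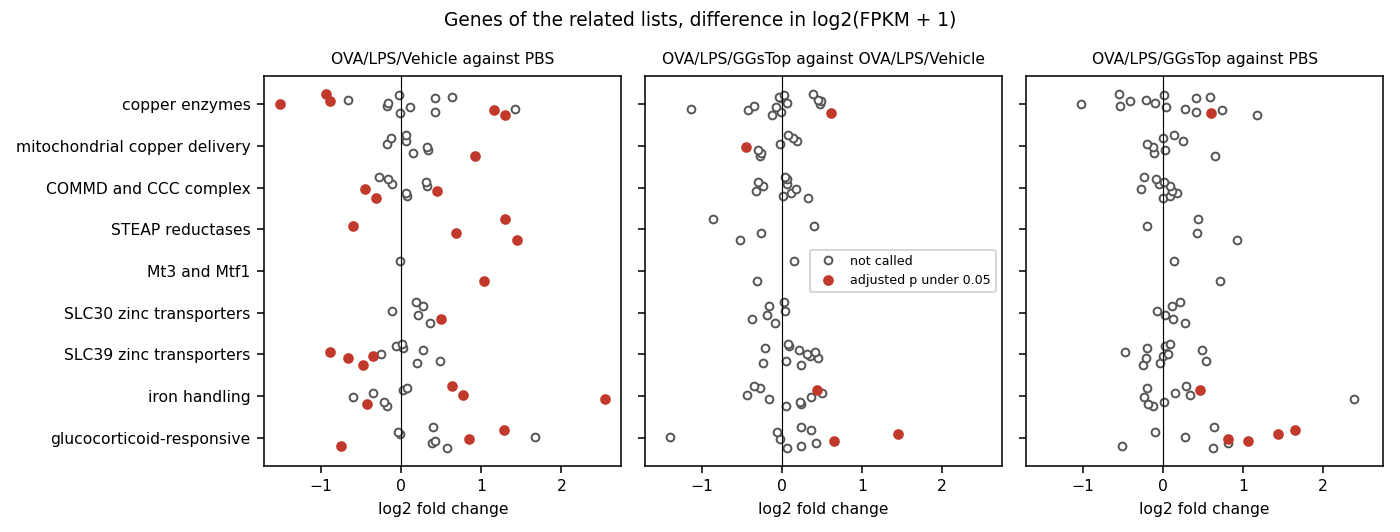
The x axis is the log2 difference in FPKM + 1 of the 76 related genes above the filter, by list, in 3 comparisons; filled points have a limma adjusted p under 0.05 and open points do not. Vehicle against PBS holds 26 filled points, among them all 4 STEAP genes, GGsTop against vehicle 5 and GGsTop against PBS 6.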

How the data were processed

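RNA-seq of 11 libraries was read from one deposited table of FPKM, in which the authors gave each gene's fragments per kilobase of exon, scaled to the library's fragments. The submitters' processing notes name cutadapt 1.15, HISAT2 2.0.5, HTSeq 0.9.1 and the build mm39 without roles; the strand setting is not given in the sources used here. With exon lengths from GENCODE M21 (GRCm38), which matched 21795 of 21899 identifiers, FPKM returned whole fragments in every library (within 0.02) for 97.6% of genes. The study's own test models counts, which were not used here, so limma 3.58.1 in R 4.3.3 was fitted to log2(FPKM + 1) with a mean-variance trend, over the 14004 genes whose mean reached 0.5 FPKM and all 3 groups. Tests were two-sided, with Benjamini-Hochberg adjustment over all genes tested and calls at adjusted p under 0.05. Fold changes on this scale understate those of low genes.

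The 10 genes and all lists were chosen with earlier results of these data known. The values of the related genes were not looked at when their lists were written, so their adjusted p-values are printed, with that limit. The text names the 10 genes, up to 3 called genes per direction and the 2 most abundant of each related list, the 3 genes most correlated with Atp7b and Mt1 (Mt2 was below the filter), and up to 3 genes of a marker list. Not all of those abundant genes and markers are described.

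Alternatives were a pseudocount of 0.1, a mean of at least 1 FPKM or no filter, libraries rescaled to the same median or the same FPKM total, no trend, fits of only the groups compared, voom on recovered fragments, a GC correction (spline with 5 degrees of freedom per library), and each library left out. Added after seeing the data were the block with GC correction and the GC correction without PBS 3. PBS and OVA/LPS/GGsTop libraries share the numbers 1 to 3 in their labels, which name no litter or day. Deviations from the group means correlated at 0.367, 0.427 and 0.428 in same-numbered libraries. Libraries with different numbers ran from -0.693 (PBS 2 with OVA/LPS/GGsTop 3) to 0.637 (PBS 2 with OVA/LPS/GGsTop 4), with 0.457 for PBS 1 with OVA/LPS/GGsTop 3. These correlations therefore do not single out the shared numbers as pairs. The block takes the numbers as pairs only as an alternative, and the blocked value is given where it changes a call. Nothing says that the libraries come from separate animals, so p-values measure the spread between these libraries. The fit was tested on simulated data. The 95% intervals come from the SE over libraries, and the floor of 3 fragments covers counting error only. Motifs were searched in RefSeq promoters of GRCm38.p6, a build other than that named in the notes.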

Additional observations from a re-analysis of the deposited data

Results flagged for a closer look

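In 95 sets of 4 libraries (each of the 10 genes and of the named related genes in a group of 4), 3 held a library whose gap to its nearest neighbour took a share of the range of the set above Dixon's 95% critical value, which chance gives in about 1 in 20. Mt2 was highest in OVA/LPS/GGsTop 1, at 0.226 FPKM or 2 fragments, with the other 3 libraries of that group listed at 0. Aoc2 was highest in OVA/LPS/Vehicle 12, at 2.56 FPKM, still below every OVA/LPS/GGsTop library. Loxl3 was highest in OVA/LPS/GGsTop 4, at 4.92 FPKM, within the range of PBS.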

How the results depend on the processing

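For the 8 genes, 497 log2 differences under an alternative moved by less than the spread between replicates and 23 by more, and for the related genes 2210 stayed on their side of the threshold, 196 lost a call and 63 gained one. The sign turned in 38 of the 520 differences of the 8 genes, none of them called in the fit reported, and in 82 of the 2470 of the related genes that were called in neither fit. Of the differences that were called, that of Slc30a4 turned direction, in vehicle against PBS, at -0.035 with GC content corrected and PBS 3 left out. The counts of the 8 genes called, 1 in GGsTop against vehicle, 3 in vehicle against PBS and 1 in GGsTop against PBS, changed as follows. In GGsTop against vehicle the count was 2 when only these groups were fitted, Ccs being added. In vehicle against PBS it was 1 (Mt1) with GC content corrected, with or without PBS 3. In GGsTop against PBS it was 0 with no filter, 0 with only these groups, 2 with GC content corrected, 0 with the replicate block and 0 with the block and GC correction together. The counts of related genes (5, 26 and 6) were 11 in GGsTop against vehicle with the same FPKM total, 21 with only these groups, 0 with GC content corrected and 3 when PBS 3 was also left out. In vehicle against PBS they were 17 with GC content corrected and 1 without PBS 3 as well. In GGsTop against PBS they were 3 with no filter, 2 with only these groups, 1 with the replicate block, 5 with the block and GC correction together and 1 with GC content corrected without PBS 3. Leaving out 1 library at a time gave 1 to 2, 2 to 4 and 0 to 3 of the 8 genes and 0 to 21, 16 to 36 and 0 to 17 related genes. The cause of these changes was not tested, beyond the smaller number of libraries in some fits. The block changed no call other than those given.

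Over all genes, GC correction left 56 calls of 1220 in GGsTop against vehicle, where 2918 genes had an unadjusted p under 0.05. Rescaling to the same FPKM total moved the median log2 difference of all genes to 0.11 in GGsTop against vehicle and -0.15 in vehicle against PBS, and the split of higher to lower calls from 966 and 254 to 2026 and 155, and from 2231 and 3096 to 1232 and 4570; rescaling to the same median gave 344 and 354 in GGsTop against vehicle. At 14513136 to 18632382 fragments, Mt2 (at most 2 fragments) and Commd1 (15 to 58) were too thinly read for a comparison.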
